A study of Mus musculus with 9 samples.

Results

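The genes described here are 10 feedback and target genes of the canonical Wnt pathway: Axin2, Nkd1, Nkd2, Apcdd1, Znrf3, Rnf43, Lgr5, Lgr6, Lef1 and Tcf7. They were taken by symbol from a fixed list of names, with no threshold on measured values, although earlier results of these data were known when the list was made. All 10 matched a row among the 27179 Entrez genes of the expression matrix and passed the filter that left 15832 genes for testing. The cells were mouse stromal cells sorted from the fibrous tissue that had formed around a tibial implant, 2 weeks after surgery. Sorted cells lacked blood lineage markers (Lin-) and carried tdTomato, a red fluorescent protein switched on by Cre recombination. In both groups the recombinase was Lepr-CreERT, which is expressed from the leptin receptor (Lepr) gene and acts after tamoxifen, and all mice received tamoxifen and an implant. The 4 control libraries carried Lepr-CreERT;Tdtomato alone. The 5 conditional knockout (cKO) libraries carried Lepr-CreERT;Tdtomato;Grem1fl/fl, so that Grem1, a secreted inhibitor of bone morphogenetic proteins, was deleted in cells in which Cre had acted. The labels give no age or sex, and do not say whether each library came from its own animal, so p-values here reflect library-to-library spread, which may be technical.

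Canonical Wnt signalling works through β-catenin, which a destruction complex built on axin and APC marks for degradation until a Wnt ligand binds a Frizzled receptor and its LRP co-receptor. Stabilised β-catenin enters the nucleus and joins DNA-binding proteins of the TCF/LEF family. Among the genes it switches on are inhibitors of the pathway, which close a negative feedback loop, and receptors and transcription factors that tune the response. In skeletal stroma the pathway is known for promoting bone formation.

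Of the 10 genes, 2 were lower in the knockouts and none was higher at an adjusted p under 0.05 (limma, Benjamini-Hochberg over all genes tested), which is 20% of them beside 7.48% of all genes tested in either direction and 2.87% for lower genes alone. Lef1, a DNA-binding partner of β-catenin, fell 3.27-fold, and Lgr6, a receptor for R-spondins, fell 2.71-fold. The estimates of the 10 genes were divided evenly, with 5 above 0 and 5 below. Their median log2 difference was 0.09, beside -0.0039 over all genes tested. Apcdd1, on the higher side, had an unadjusted limma p of 0.0133 and did not pass after adjustment (limma adjusted p = 0.0895). edgeR on recovered reads called the same 2 genes, beside 4.96% of all genes, and DESeq2 called Apcdd1 as well, beside 16.1%. The groups did not overlap for 2 of the 10 genes, Lef1 and Lgr6, beside 11.4% of all genes tested.

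**Figure D1:**
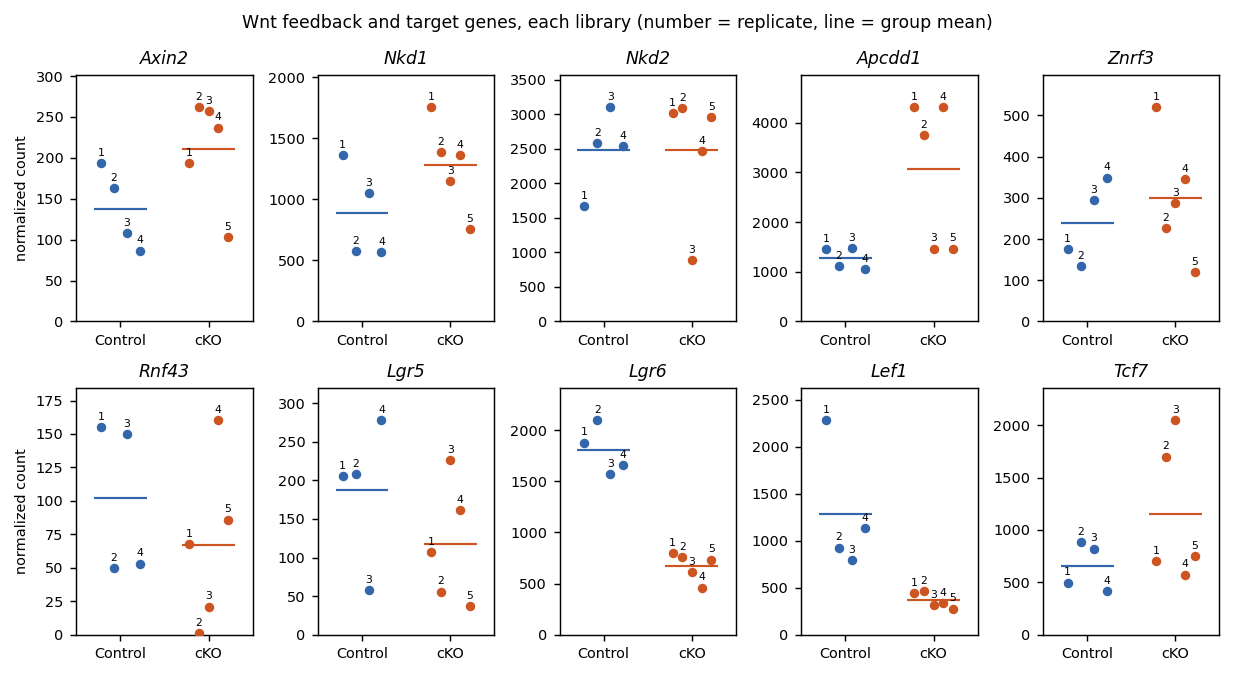
Normalized counts of the 10 genes in each library on linear axes from 0, with one panel per gene, numbered points for replicates and lines for group means. The control and knockout points of Lef1 and Lgr6 do not overlap, and those of the other 8 genes do.

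**Figure D2:**
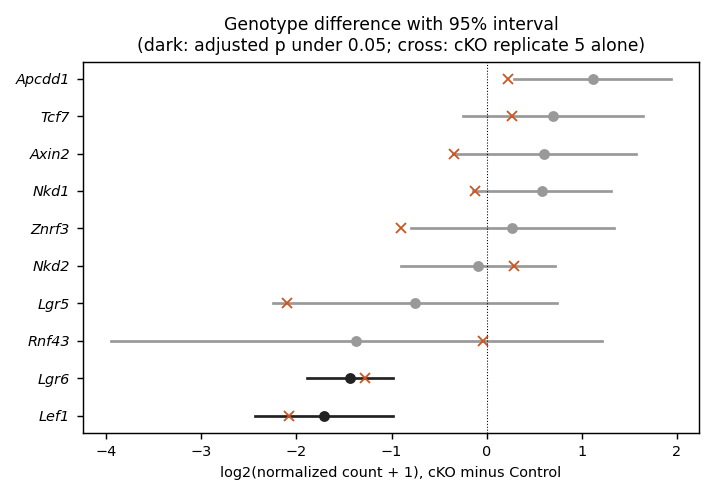
Log2 difference, knockout minus control, of the 10 genes as points with 95% intervals from limma, dark where the adjusted p was under 0.05, and crosses for knockout 5 alone against the control mean. The intervals of Lef1, Lgr6 and Apcdd1 exclude 0, and after adjustment over all genes Lef1 and Lgr6 passed.

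The libraries held between 43.5 and 87.2 M recovered reads. Knockout libraries 1 to 4 were the only ones above 60 M reads, so for these libraries depth and genotype cannot be told apart. The targeted gene, Grem1, stood at 736, 517, 676 and 356 normalized counts in the controls and at 83.2, 46.4, 125, 133 and 60.8 in the knockouts, with no overlap (log2 difference -2.72, SE 0.43, limma adjusted p = 0.00781). Lepr itself was detected in every library, between 935 and 40594 normalized counts in controls and between 1347 and 15785 in knockouts. Cell type lists also differed. All 10 skeletal muscle genes and 7 of 10 Schwann cell genes were higher in the knockouts, while 7 of 10 chondrocyte genes were lower. The endothelial sum reached 147529 and 182121 in control libraries 1 and 3, against 5045 to 9235 in the other libraries. In sorted bulk RNA, fewer cells of a type and less RNA per cell cannot be told apart, and this holds for every gene below.

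Promoter sequences are shown for Lef1 and Lgr6, the genes that fell, and for Axin2, the standard readout that did not pass. Each window is the 250 bases before a RefSeq transcription start on GRCm38.p6, which is not the build of the deposited counts, written 5′ to 3′ on the gene's strand. Capitals mark a match to a TCF/LEF core motif, searched on both strands. The letters searched were CTTTGAA first, CTTTGAT next, then also CTTTGTA and finally CTTTGTT. The windows lie at chr11:108920099-108920348 (plus strand) for Axin2, chr3:131110047-131110296 (plus strand) for the outermost Lef1 start, chr3:131156044-131156293 (plus strand) for an inner Lef1 start and chr1:135105277-135105526 (minus strand) for Lgr6.
Axin2: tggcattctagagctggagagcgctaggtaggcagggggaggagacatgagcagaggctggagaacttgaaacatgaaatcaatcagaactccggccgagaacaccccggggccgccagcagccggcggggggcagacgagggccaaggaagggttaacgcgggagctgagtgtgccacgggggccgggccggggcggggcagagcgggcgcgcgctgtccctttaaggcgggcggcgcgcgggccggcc
Lef1, outermost start: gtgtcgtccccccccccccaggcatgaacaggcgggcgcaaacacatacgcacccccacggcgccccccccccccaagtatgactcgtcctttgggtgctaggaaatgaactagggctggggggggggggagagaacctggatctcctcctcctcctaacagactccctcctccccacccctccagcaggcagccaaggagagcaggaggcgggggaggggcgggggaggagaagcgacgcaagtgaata
Lef1, inner start: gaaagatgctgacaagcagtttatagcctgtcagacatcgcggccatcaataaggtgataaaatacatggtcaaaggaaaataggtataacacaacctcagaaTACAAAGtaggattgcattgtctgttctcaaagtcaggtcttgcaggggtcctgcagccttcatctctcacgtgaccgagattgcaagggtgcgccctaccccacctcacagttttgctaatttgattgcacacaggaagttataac
Lgr6: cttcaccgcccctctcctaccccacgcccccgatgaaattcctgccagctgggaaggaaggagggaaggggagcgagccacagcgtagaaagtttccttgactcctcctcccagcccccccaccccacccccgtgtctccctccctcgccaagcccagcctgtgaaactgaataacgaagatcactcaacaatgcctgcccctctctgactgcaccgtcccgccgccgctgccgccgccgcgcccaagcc
Windows were kept for 7 of the genes (Axin2, Lef1, Tcf7, Nkd1, Nkd2, Lgr6 and Rnf43) and none for Lgr5, Apcdd1 and Znrf3. Of these 12 windows 1 held a match, TACAAAG, the reverse complement of CTTTGTA, at position -147 from the inner Lef1 start. That is 8.33% of these windows, beside 14.8% of all 32851 promoter windows of this length. The windows of the 10 genes left out 1 chromosome that the count over all windows includes, so the shares differ in basis. The inner Lef1 window is the only Lef1 window with a match. Further Lef1 windows, at chr3:131110073-131110322 and chr3:131112541-131112790, held none and are not shown. The match is a description of the letters and was not tested for binding.

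Axin2 encodes the scaffold of the destruction complex whose transcription is a widely used readout of β-catenin activity. Its normalized counts were 193, 163, 108 and 86.6 in the controls and 194, 262, 257, 237 and 103 in the knockouts. Knockouts 2, 3 and 4 lay clearly above every control, knockout 1 lay level with the highest control, and knockout 5 lay among the lower controls. Controls averaged 138 ± 49.1 (SD, n = 4) and knockouts 211 ± 65.9 (SD, n = 5). The log2 difference of 0.61 (SE 0.43, 95% interval -0.35 to 1.56) did not pass the test (limma adjusted p = 0.397). Its values rested on 62 to 390 recovered reads a library.

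The naked cuticle proteins Nkd1 and Nkd2 bind Dishevelled and dampen the signal between receptor and destruction complex. Nkd1 stood at 1359, 577, 1049.7 and 566 in the controls and at 1758, 1387, 1148, 1363 and 759 in the knockouts. The highest value was in knockout 1, but control 1 lay among the knockouts and knockout 5 among the controls. Its log2 difference was 0.58 (SE 0.33, 95% interval -0.14 to 1.31, limma adjusted p = 0.280), and it passed only with library quality weights (0.90, adjusted p = 0.0464).

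Nkd2 showed no detected difference between the groups. Its values were 1670.0, 2588, 3109 and 2545 in the controls and 3020.0, 3089, 890.3, 2465 and 2961 in the knockouts. Knockout 3 lay below every other library, and the remaining knockouts lay within the range of the controls. Mean counts were 2478 ± 597 (SD, n = 4) in controls and 2485 ± 925 (SD, n = 5) in knockouts, and the log2 difference was -0.089 (SE 0.36, limma adjusted p = 0.898). The sign of so small a difference was not stable. Without knockout 3 it was 0.25.

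Apcdd1 encodes a membrane protein that binds Wnt and LRP5 and inhibits the pathway at the cell surface. Its normalized counts were 1454, 1110.5, 1469.6 and 1056 in the controls and 4306, 3755, 1466, 4319 and 1465 in the knockouts. Knockouts 1, 2 and 4 were far above every control, whereas knockouts 3 and 5 lay at the level of the highest controls. Control libraries averaged 1273 ± 220 (SD, n = 4) and knockouts 3062 ± 1475 (SD, n = 5). The log2 difference of 1.11 (SE 0.37, 95% interval 0.29 to 1.94) missed the threshold (limma adjusted p = 0.0895). The call depended on the method: it passed in DESeq2 on recovered reads (adjusted p = 0.00927), in the authors' deposited table (adjusted p = 0.0101, where 17.1% of genes with an adjusted p passed) and in limma with quality weights (adjusted p = 0.0070) or without knockout 5 (1.34, adjusted p = 0.0235), and not in edgeR (adjusted p = 0.0766).

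Knockouts 1, 2 and 4 also held the largest sums of the Schwann cell list. These sums were 45480, 49512 and 44467 normalized counts, against 17374 and 20679 in knockouts 3 and 5 and 6113 to 11214 in the controls. In all, 7 of the 10 Schwann genes tested were higher in the knockouts, and no gene of the list was at 0 in a knockout, while Pmp2 was at 0 in 3 controls. The skeletal muscle sum was also largest in knockouts 1, 2 and 4, at 414417, 230913 and 647219 normalized counts. It was 70625 and 79138 in knockouts 3 and 5 and 379 to 1791 in the controls. The part of Schwann cells and of muscle in the Apcdd1 values was not tested.

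**Figure D3:**
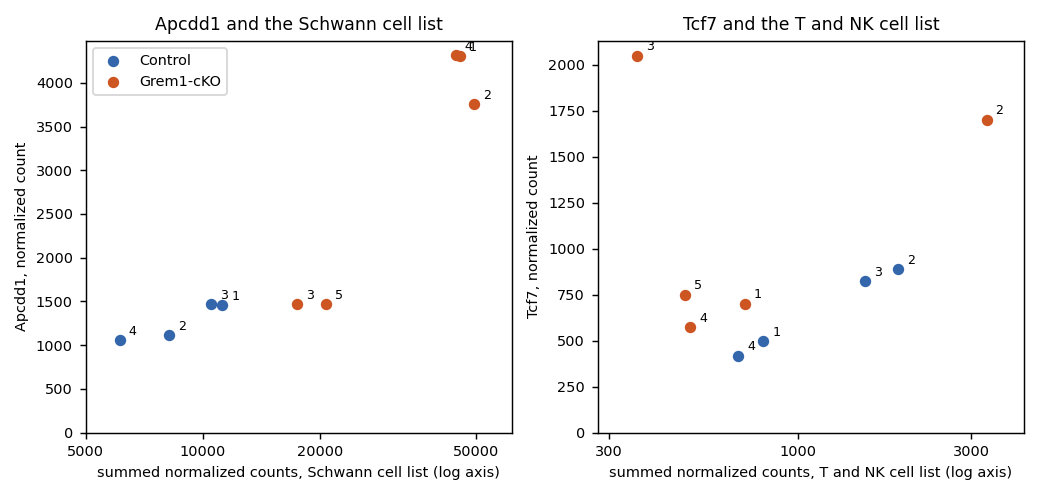
Left, normalized count of Apcdd1 against the summed normalized counts of the Schwann cell list, and right, Tcf7 against the T and NK cell list, both with the sum on a log axis and one numbered point per library. The 3 libraries high for Apcdd1 are knockouts 1, 2 and 4, and the library highest for Tcf7, knockout 3, has the lowest T and NK cell sum.

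Znrf3 and Rnf43 are related membrane ubiquitin ligases that remove Frizzled receptors from the cell surface. Znrf3 stood at 176, 135, 295 and 349 in the controls and at 521, 226, 287, 346 and 119 in the knockouts. The groups overlapped widely, with the highest and the lowest library both among the knockouts (log2 difference 0.27, SE 0.48, limma adjusted p = 0.750). Rnf43 was the least expressed of the 10 genes for its length. Its values were 155, 49.7, 149.7 and 53.1 in the controls and 67.7, 1.35, 21.0, 160.4 and 86.0 in the knockouts. The value of knockout 2 rested on 2 reads, and the highest value was also in a knockout. Its log2 difference of -1.37 had an SE of 1.16 and a 95% interval from -3.95 to 1.21 (limma adjusted p = 0.477), so that at this spread neither a large decrease nor an increase could be told from no change.

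Lgr5 and Lgr6 are receptors for R-spondins, secreted proteins that hold Znrf3 and Rnf43 in check and so strengthen the Wnt response. Both are known as markers of stem cells in several tissues. Lgr6 stood at 1878, 2098, 1569 and 1660.0 in the controls and at 797, 763, 612, 461 and 735 in the knockouts. Every knockout lay below the lowest control, as was the case for 4.6% of all genes tested in this direction. Controls averaged 1801 ± 237 (SD, n = 4), the smallest SD for its mean among the 10 genes in the controls, and knockouts averaged 674 ± 138 (SD, n = 5). Lgr6 fell by 1.44 on the log2 scale (SE 0.20, 95% interval -1.88 to -0.99, limma adjusted p = 0.00468). It passed without each library in turn, with adjusted p between 0.00172 and 0.0186. With the only knockout under 60 M reads set against the controls, the difference was -1.28 and did not pass (limma adjusted p = 0.181).

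Lgr5 was expressed at a lower level and varied more. Its values were 205, 208, 58.1 and 278 in the controls and 107, 55.9, 226, 162 and 37.0 in the knockouts. Control 3 lay among the lowest libraries and knockout 3 among the highest, so the groups overlapped. The log2 difference was -0.75 with a 95% interval from -2.25 to 0.74 (SE 0.67, limma adjusted p = 0.503). The interval includes the difference measured for Lgr6, and whether the receptors differed in their response was not tested.

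Lef1 and Tcf7 encode related DNA-binding proteins of the TCF/LEF family, and both genes are themselves known Wnt targets. Lef1 stood at 2285, 928, 796 and 1137 in the controls and at 443, 462, 312, 335 and 279 in the knockouts. Every knockout lay below the lowest control, and control 1 stood well above the other controls. Controls averaged 1287 ± 680 (SD, n = 4) and knockouts 366 ± 81.7 (SD, n = 5). Lef1 fell by 1.71 on the log2 scale (SE 0.33, 95% interval -2.44 to -0.98, limma adjusted p = 0.0173), and it also passed in edgeR (adjusted p = 0.0209) and DESeq2 (adjusted p = 2.3e-05). It passed without each library in turn, with limma adjusted p between 0.0102 and 0.0494. Without controls 1 and 3 together, which stood apart for endothelial genes, the difference was -1.51 with an adjusted p of 0.0574, and with the only knockout under 60 M reads it was -2.07 with an adjusted p of 0.374.

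Lef1 and Lgr6 moved in the same direction as the chondrocyte list, whose sum ranged from 1954616 to 4609928 normalized counts in the controls and from 164826 to 1240073 in the knockouts, with no defining gene at 0 in any library. Among the knockouts, knockout 5 had the largest chondrocyte sum. Its Lef1 value was the lowest of all libraries, and its Lgr6 value lay inside the range of the other knockouts. Knockout 5 is a single library and the shallowest knockout. The smooth muscle and pericyte sum was also lower, at 97095 to 137728 in the controls and 52937 to 95792 in the knockouts, with 2 of 8 genes past the test and none at 0. The part of cartilage and mural cells in these differences was not tested. Lgr6 and Lef1 are also known from surface epithelium. The sum of the 7 epithelial genes was 57.9 to 159 normalized counts in the controls and 42.3 to 27269 in the knockouts, of which 1 to 4 lay above every control and 5 below. Krt5, Krt14, Krt15 and Krt8 were at 0 in all 4 controls, Krt18 in 3 of them, and Epcam and Cdh1 in none. The part of epithelial cells was not tested. Lef1 is also known from T cells. Of the 13 genes of the T and NK cell list 8 were tested, with a median log2 difference of -1.80, in the same direction as Lef1, and 0 of the 8 passed in limma, edgeR or DESeq2, with 0 at an unadjusted p under 0.05. The list's sum was 683 to 1879 normalized counts in the controls and 360.04 to 3303 in the knockouts, so the groups overlapped. In the authors' deposited table Nkg7 averaged 577 normalized counts, and Cd3d, Cd3e and Cd3g 15.2, 14.9 and 4.2. Libraries at 0, controls then knockouts, were 1 and 4 for Cd3d, 2 and 2 for Cd3e and 4 and 3 for Cd3g. They were 2 and 4 for Cd4 and for Il7r, 4 and 4 for Cd8a, 1 and 3 for Klrb1c and 2 and 1 for Bcl11b. For Cd2 they were 1 and 1, and for Ccr7 0 and 1. The part of T and NK cells in the Lef1 difference was not tested.

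Tcf7 did not follow Lef1. Its values were 497, 887, 821 and 418 in the controls and 700.0, 1700.1, 2048, 573 and 748 in the knockouts. Knockouts 2 and 3 lay far above every other library, and the remaining knockouts lay among the controls. The log2 difference was 0.69 (SE 0.43, 95% interval -0.25 to 1.64, limma adjusted p = 0.325). Knockout 2 had the largest T and NK cell sum, 3303 normalized counts, and knockout 3 had the smallest, 360.04. The part of T and NK cells in the Tcf7 values was not tested. The sum of the 6 muscle stem cell genes did not single out knockouts 2 and 3. It was 46597, 50411, 51763, 55500 and 11839 in knockouts 1 to 5, highest in knockout 4, and 3357 to 7942 in the controls, with 5 of the 6 genes higher in the knockouts. Within that list Pax7 (1696 and 1928 normalized counts) and Myf5 (8600 and 10121) were highest in knockouts 2 and 3. These 2 of the 6 genes were picked after the values were seen, and the sum over all 6 was highest in knockout 4. The part of muscle stem cells was not tested.

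Within each library, the Lef1 count divided by the Tcf7 count was 4.60, 1.05, 0.969 and 2.72 in the controls and 0.633, 0.272, 0.152, 0.585 and 0.373 in the knockouts. All controls lay above all knockouts. This ratio needs no scaling between libraries, was chosen after the values were seen and is given as a description. The ratios Nkd1 to Nkd2, Lgr6 to Lgr5 and Znrf3 to Rnf43 overlapped between the groups.

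**Figure D4:**
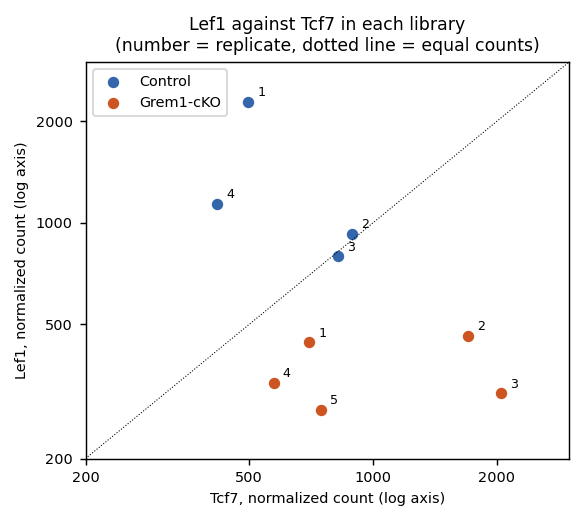
Normalized counts of Lef1 and Tcf7 in each library, both axes logarithmic, with one numbered point per library and a dotted line at equal counts. Controls lie at higher Lef1 for their Tcf7, with Lef1 to Tcf7 ratios of 0.969 to 4.60, and knockouts lie at ratios of 0.152 to 0.633.

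Knockout 5, the shallowest knockout, was set beside the control mean for each gene. It lay nearer to the mean of the other 4 knockouts for 3 genes, Lef1, Lgr5 and Lgr6, at log2 differences from the controls of -2.07, -2.10 and -1.28, and nearer to the control mean for the remaining 7. For Axin2, Nkd1, Znrf3 and Apcdd1 its differences were -0.34, -0.12, -0.90 and 0.22, beside 0.84, 0.76, 0.56 and 1.34 for knockouts 1 to 4.

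Levels of different genes were compared per kilobase of exon, from GENCODE M21 gene models. In the controls Nkd2 was highest, at a mean of 617 normalized counts per kilobase, followed by Lef1 at 367, Lgr6 at 268, Tcf7 at 249.9 and Nkd1 at 195. Apcdd1 followed at 117, and Lgr5, Axin2, Znrf3 and Rnf43 were lowest, at 39.8, 32.3, 30.3 and 22.5. In the knockouts the order was Nkd2 at 619, Tcf7 at 439.6, Apcdd1 at 281, Nkd1 at 281, Lef1 at 104 and Lgr6 at 100.2, with Axin2, Znrf3, Lgr5 and Rnf43 at 49.4, 38.0, 24.9 and 14.8. Lef1 moved from the second place to the fifth. Most neighbours in these orders overlapped between libraries, as did Lef1 at 227 to 652 and Lgr6 at 233 to 312 in the controls. The exceptions were Apcdd1 above Lgr5 in the controls, and Nkd1 above Lef1 and Lgr6 above Axin2 in the knockouts.

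For Axin2, Lef1 and Lgr6 the genes of most similar profile over the 9 libraries were sought among 13369 genes, by the mean absolute log2 difference of profiles centred on their means. Tmem14a (0.158), Sp3os (0.161) and Mettl6 (0.174) were nearest to Axin2. Rhbdl2 (0.275), Hoxc8 (0.288) and Tkfc (0.319) were nearest to Lef1, and Tlcd3a (0.213), Mfge8 (0.216) and Kcnma1 (0.227) to Lgr6. The feedback and target genes described here were themselves left out of this search, so it could not return any of them. None of the genes named as nearest is in the other Wnt lists used here.

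Other genes of the pathway were read from 5 lists. Of 79 tested genes, 9 were higher, 4 were lower and 66 did not pass, which is 16.5% past the test beside 7.48% of all genes, with a median log2 difference of 0.21. Of 20 core components, among them β-catenin and the axin, APC and Dishevelled genes, only Amer1, which helps to hold APC at the membrane, passed (1.04, SE 0.25, limma adjusted p = 0.0356), and the median was -0.051. Among 18 receptors 3 fell and 1 rose. Fzd9, a Frizzled receptor, went from 5770 ± 883 (SD, n = 4) to 938 ± 558 (SD, n = 5), a log2 difference of -2.77 (SE 0.33, limma adjusted p = 0.0026). Fzd6 (-2.08) and Ptk7 (-1.01) were also lower, and Fzd10 was higher from counts of 0, 0, 86.1 and 2.79 in the controls. Fzd10 passed narrowly in limma (adjusted p = 0.0466) and not in edgeR (adjusted p = 0.272) or DESeq2 (adjusted p = 0.135).

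Ligands and R-spondins had the highest median of the 5 lists, 1.06 over 19 tested genes, and 3 of them rose and none fell. Wnt6 differed by 3.13 (SE 0.57, limma adjusted p = 0.0152), Rspo1, a ligand of the Lgr receptors, by 2.16 (adjusted p = 0.0263) and Wnt2 by 5.81 (adjusted p = 0.0353). Wnt2 was at 0 in controls 1 and 3, so its log2 difference depends on the pseudocount. Among 13 tested secreted antagonists 1 fell and 3 rose. Frzb, which binds Wnt proteins outside the cell, went from 7441 ± 809 (SD, n = 4) to 1429 ± 339 (SD, n = 5), a log2 difference of -2.41 (SE 0.18, limma adjusted p = 0.0004). Sfrp4 (1.14), Sostdc1 (6.66) and Dkk1 (4.95) were higher. Dkk1 passed narrowly in limma (adjusted p = 0.0494). It passed in DESeq2 (adjusted p = 0.00573) and not in edgeR (adjusted p = 0.109). Sostdc1 was at 29.1 in knockout 5, among the controls at 0 to 35.1, and between 564 and 1814 in the other knockouts. Among 13 tested genes of the list of further targets, Myc rose by 0.85 (SE 0.19, limma adjusted p = 0.0301), from 3401 ± 372 (SD, n = 4) to 6274 ± 1792 (SD, n = 5), and Dkk1, which this list shares, rose. Of the 13 genes past the test over the 5 lists, Fzd9, Wnt6, Sfrp4 and Frzb passed without each library in turn. Each of the other 9 lost the call without at least 1 library. The part of the muscle, Schwann and cartilage differences given above in these lists was not tested.

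**Figure D5:**
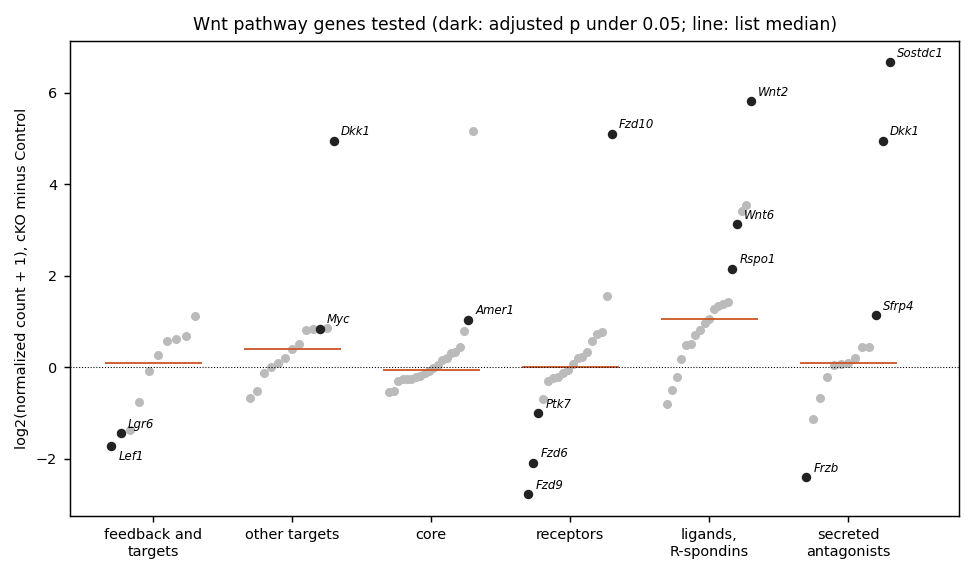
Log2 difference, knockout minus control, of each tested gene in the 10-gene list and the 5 other Wnt lists, one column of points per list, with lines for list medians and dark, named points for genes past the test. The ligand list has the highest median, 1.06, and the 10 genes have a median of 0.09.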

How the data were processed

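The deposited matrix holds a signal, the normalized count of each Entrez gene in each of the 9 libraries, which the authors scaled by a single factor per column. STAR, featureCounts and DESeq2 and build mm39 are named per the submitters' processing notes, without versions; for annotation and strand the sources used here give nothing. A comparison table by the authors was deposited too; per the file headers it holds a mean signal, a log2 fold change, a test statistic (score) and p-values. Its values are quoted only as the authors' own. Each library's values were whole multiples of 1 step (tolerance 0.01 of a read) for at least 99.99% of values, which recovered the reads. Overlapping or antisense genes cannot be told apart without strand.

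Groups were compared with limma 3.58.1, run in R 4.3.3 (eBayes with trend), on log2(normalized count + 1), genotype only, on genes with at least 10 in at least 4 libraries, two-sided, Benjamini-Hochberg over 15832 genes, threshold 0.05. Fold changes are on that scale. For low genes the added 1 shrinks a change, but libraries near 0 can enlarge it beyond the count tests. For Rnf43 the log2 difference was -1.37 in limma, -0.62 in edgeR and -0.60 in DESeq2. For Wnt2 the values were 5.81, 3.74 and 3.77. Alternatives were count tests of the recovered reads (edgeR 4.0.16, DESeq2 1.42.0), other pseudocounts, filters, TMM scaling, thinning, quality weights, a replicate block and libraries left out. An exact permutation test, two-sided, gave p = 0.00794 for Grem1, the smallest possible. Symbols came from a RefSeq table (GRCm38.p6), which matched 25275 of 27179 identifiers, and it gave names only.

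Members, lists and tests were chosen with earlier results of these data known. Named genes were the members, Grem1, in each Wnt list up to 4 passing genes in each direction by p, the 3 most similar profiles, and defining markers.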

Additional observations from a re-analysis of the deposited data

Results flagged for a closer look

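Nkd2 in Grem1-cKO library 3, at 890.3 normalized counts, lay far from the other knockouts, which ranged from 2465 to 3089; its gap to the nearest was 0.717 of the group's whole range. Of 22 groups checked this was the only 1 so marked. Chance marks about 1 in 20 groups, so 1 mark is near that rate. Lef1 in control 1, at 2285 beside 796 to 1137 in the other controls, also stood apart and was not marked.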

How the results depend on the processing

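The 10 genes past the test numbered 2 in limma, 4 with library quality weights, 1 without controls 1 and 3 together, and 2 to 3 when each library was left out. With only libraries under 60 M reads, 1 knockout stood against 4 controls and was assumed to vary like them. No count is given for that setting. Over all genes the count was 1184 (730 higher, 454 lower) in limma, 786 in edgeR (270 lower) and 2546 in DESeq2 (1568 and 978). It was 2715 with the replicate block (1508 and 1207), 4056 with quality weights (2237 and 1819) and 342 without controls 1 and 3 (284 and 58). Leaving out each library gave 373 to 3531 genes (254 to 1941 higher, 119 to 1590 lower), with 3531 without knockout 5 and 373 to 665 without any other. The other Wnt genes past the test numbered 13 in limma, 7 in edgeR, 23 in DESeq2, 20 with the block, 26 with weights, 6 without controls 1 and 3, 0 under 60 M reads (9 at an unadjusted p under 0.05) and 4 to 25 without each library. With the block, which leaves knockout 5 alone in its block, Apcdd1 passed (limma adjusted p = 0.04998). The labels give no link between same-numbered libraries beyond the number. Same-numbered deviations correlated at 0.070, 0.017, -0.0062 and -0.011, and no control correlated best with the knockout of its own number. These correlations cannot show whether same-numbered libraries were paired, since any other difference between libraries enters them too. Grem1 lost its call without controls 1 and 3 (-2.36, adjusted p = 0.0903) and under 60 M reads (-3.16, adjusted p = 0.129). The sign turned for Nkd2 in DESeq2 (0.0035), without control 3 (0.031), without knockout 3 (0.25; -0.27 to 0.25 without each library) and under 60 M reads (0.29), and under 60 M reads for Axin2 (-0.34), Nkd1 (-0.12) and Znrf3 (-0.90). None of these 4 passed there, and the cause was not tested.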
